A study of Mus musculus with 4 samples.

Results

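The collagen genes of mouse prostate tumours were taken as every gene of the deposited single-cell data whose symbol reads Col, a type number, a and a chain number. There were 44 of them among 32285 genes. They cover 27 collagen types, and each gave at least 1 unique molecular identifier (UMI, a tag counted once per captured RNA molecule). The TKO tumours carried Nkx3.1CreERT2 and floxed alleles that include Smad4L/L and Pygo2L/L, and the DKO tumours carried the same alleles without Pygo2L/L. Both genotypes thus share a tamoxifen-inducible Cre under Nkx3.1, a gene of prostate epithelium, and floxed alleles that include Smad4, and fibroblasts are not cells that this Cre targets. Each genotype had 2 libraries. Tumours were taken 10 or 17 weeks after tamoxifen, per the series design, but no library is tied to a time and no age is given. The labels do not say whether the paired libraries of a genotype stem from different mice. The p-values therefore cover the scatter of these 4 libraries alone, and that scatter may be technical. The cells were freed by enzymes, strained, depleted of red and dying cells, marked with hashtag antibodies and loaded together, so RNA released by broken cells was shared by all 4 libraries.

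Collagens are proteins of the extracellular matrix, built from chains that wind into a triple helix. Fibril-forming types such as I, III and V give connective tissue its strength, type IV forms the sheet under epithelia and around vessels, and other types decorate fibrils, link layers or span the cell membrane. In the prostate, as in other glands, fibroblasts and smooth muscle make the fibrils of the stroma, and basal cells sit on the basement membrane. A 3-prime tag is counted per molecule and not per base, so shares of UMIs below need no length scaling, although genes may be captured unequally.

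The 4 libraries held 3381 kept cells, with 18360201 and 10505183 UMIs in the TKO libraries and 9167770 and 14660012 in the DKO libraries. No cell barcode was shared between libraries. Cells were assigned to classes by UMIs of marker genes, none of them a collagen. This gave 128 fibroblasts (52 and 21 in TKO, 24 and 31 in DKO), 37 basal epithelial cells (10 and 1 in TKO, 6 and 20 in DKO), 117 luminal epithelial cells (27 and 14 in TKO, 22 and 54 in DKO) and 2848 immune cells. The 10 fibroblast markers, which defined the class, summed to 14428 and 14984 CPM in TKO fibroblasts and 14034 and 11513 CPM in DKO. CPM is the UMIs of a gene or list over all UMIs of that class in that library, multiplied up to a fixed total. These sums follow from the gate and do not test it. Pygo2, the allele that separates the genotypes, gave 23 and 3 UMIs in TKO epithelial cells and 6 and 30 in DKO epithelial cells. That was 18.8 and 7.86 CPM in TKO and 5.82 and 9.25 CPM in DKO, so the groups overlapped. Where the counted tag lies relative to the deleted exons is not given in the sources used here. These counts therefore check neither the deletion nor the labels.

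Collagen transcripts were concentrated in fibroblasts. They made up 3.10% and 3.01% of all UMIs in TKO fibroblasts and 3.72% and 3.75% in DKO fibroblasts. In basal cells the share was 0.0494% and 0.179% in TKO, the second value from 1 cell, and 0.0344% and 0.0803% in DKO. In luminal cells it was 0.115% and 0.0330% in TKO and 0.0248% and 0.0305% in DKO, and the first TKO value was 0.0357% without 1 cell that carried endothelial markers. Immune cells gave 0.0412% and 0.0397% in TKO and 0.0422% and 0.0400% in DKO. Every fibroblast library thus lay above every epithelial and immune library. Single fibroblasts ranged from 0.0930% to 10.4% collagen UMIs with a median of 2.01%, and 21 of 128 were under 1%.

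**Figure D1:**
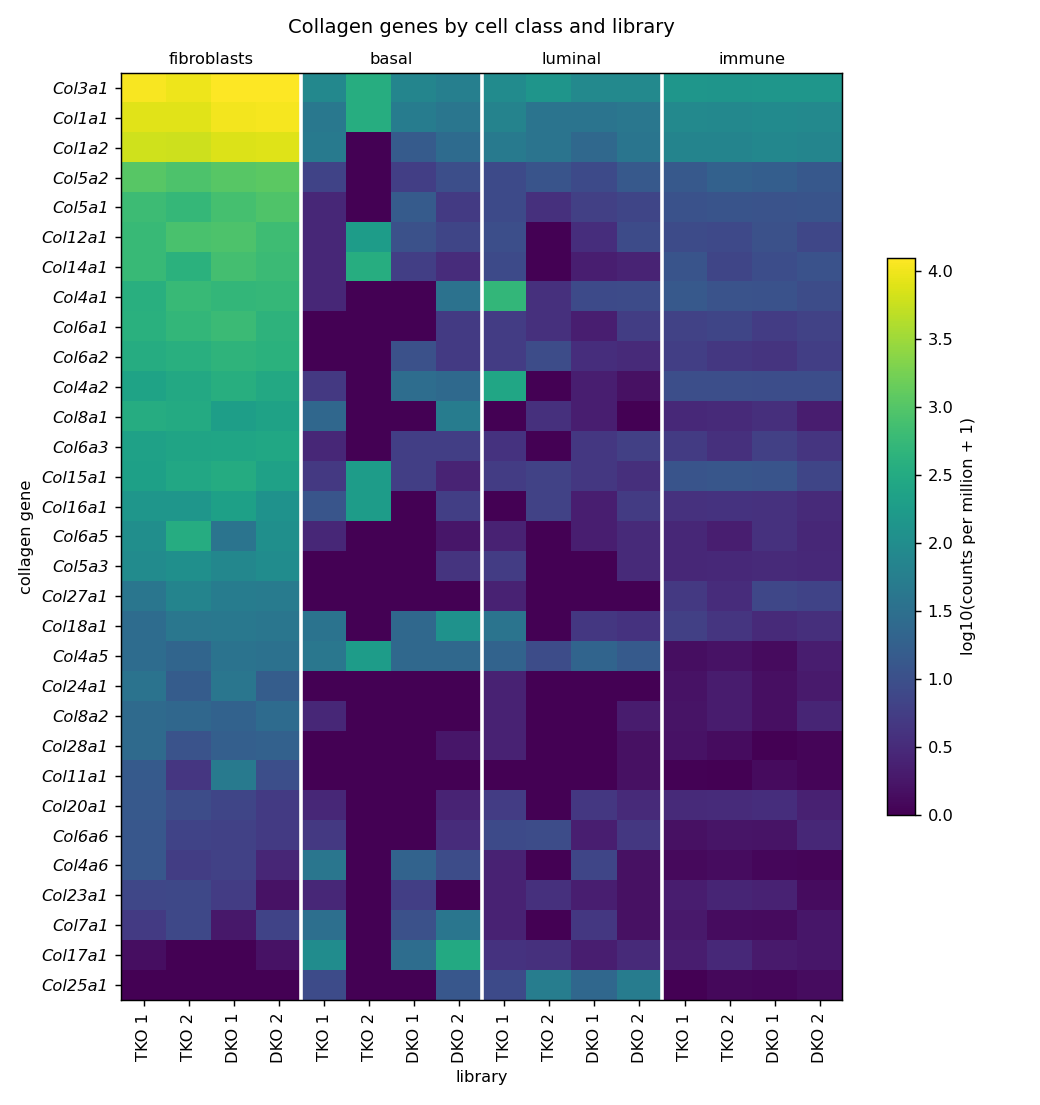
Level of each collagen gene with at least 20 UMIs in fibroblasts, basal or luminal cells, by class and library; colour gives log10(CPM + 1). The fibroblast columns are brightest in the upper rows, Col17a1 and Col7a1 are brightest in basal cells, and Col25a1 is seen in epithelial cells and not in fibroblasts.

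Fibril-forming chains supplied 87.9% of the collagen UMIs of fibroblasts, with 88.1% and 85.2% in TKO and 87.2% and 89.2% in DKO. Col3a1, the sole chain of type III, gave 34.2%, and Col1a1 and Col1a2, the chains of type I, gave 27.5% and 20.4%. Fibril-associated types, which coat fibrils, gave 4.26%, and the beaded-filament types, chiefly type VI, gave 3.69%. The basement-membrane chains of type IV gave 2.36%, the short-chain network types 0.898% and the multiplexins, found near basement membranes, 0.825%. Transmembrane and anchoring-fibril collagens gave 0.0160% and 0.0127%. Epithelial collagen UMIs varied in make-up between libraries. Fibril-forming chains gave 24.4% and 65.7% of them in TKO and 58.7% and 33.6% in DKO. Transmembrane collagens gave 6.48% and 16.4% in TKO and 9.78% and 31.6% in DKO. Basement-membrane chains gave 57.2% and 3.73% in TKO and 17.0% and 9.74% in DKO, and of the 601 UMIs behind the first TKO value, 350 of Col4a1 and 179 of Col4a2 came from 1 luminal-gated cell with endothelial markers.

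Fibroblasts were set against basal and luminal epithelial cells together, within the 3 libraries with at least 20 cells of each (TKO replicate 1 and both DKO replicates). By edgeR's quasi-likelihood test with Benjamini-Hochberg adjustment, 4646 of 11207 genes passed (41.5%), 22.1% of genes higher and 19.4% lower in fibroblasts. Of 28 collagen genes tested, 20 were higher and 3 lower. The number lower was 2 without DKO replicate 1, 0 without DKO replicate 2, 1 without TKO replicate 1 and 2 by DESeq2. The median log2 fold change was 6.22 over the collagen genes and close to 0 (-0.000717) over all genes. A filter on low counts chose the 28 genes, so these counts do not speak for the members that were not tested.

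Every tested chain of types I, III, V, VI, VIII and the fibril-associated types was higher in fibroblasts. Col1a2 differed by 8.01 ± 0.32 on the log2 scale (SE, 3 libraries, edgeR adjusted p = 2.83e-06), Col1a1 by 7.99 ± 0.28 and Col3a1 by 7.46 ± 0.22 (edgeR adjusted p = 1.93e-06). Col14a1, whose product binds the fibril surface, differed by 8.08 ± 0.38, and Col6a1, a chain of the microfibrils next to cells, by 7.54 ± 0.40. Col8a1, a short-chain network collagen of vessel walls and the cornea, differed by 4.91 ± 0.58.

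Type IV did not follow the fibril-forming chains in this test. Col4a1 and Col4a2, the chains found in nearly every basement membrane, had log2 fold changes of 4.02 ± 1.74 and 3.83 ± 1.45, and neither was called (edgeR adjusted p = 0.182 and 0.141). Their epithelial counts came largely from a single luminal-gated cell of TKO replicate 1 that also carried endothelial markers. It held nearly all of the 356 Col4a1 and 182 Col4a2 UMIs of its library's luminal cells, and luminal Col4a1 there was 519 CPM with it and 10.1 CPM without it. With cells carrying endothelial, muscle or Schwann markers left out, both genes passed, at 5.95 each, in a fit that held only TKO replicate 1 and DKO replicate 2, since DKO replicate 1 then had under 20 fibroblasts. Col4a5 and Col4a6, which join in the basement membranes of skin and smooth muscle, differed by 0.77 ± 0.30 and -0.49 ± 0.45 and did not pass (edgeR adjusted p = 0.0677 and 0.427). Col18a1, the source of endostatin, differed by 0.55 ± 0.51 (edgeR adjusted p = 0.447).

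The 3 collagens lower in fibroblasts were Col17a1, Col25a1 and Col7a1. Col17a1 encodes the transmembrane collagen of hemidesmosomes, which pin basal cells to the basement membrane, and differed by -6.84 ± 0.48 (edgeR adjusted p = 1.63e-05). Col7a1 encodes the anchoring fibril below the epidermis and differed by -1.46 ± 0.48 (edgeR adjusted p = 0.0414), a call lost in 3 of 10 alternatives. Col25a1, a transmembrane collagen first known from brain amyloid, had 0 UMIs in 128 fibroblasts, which allows a share of up to 2.34% of cells with a UMI. Over the 3 libraries it reached 26.4 CPM in epithelial cells, at least 47.6-fold higher than the floor of 3 counts over all fibroblasts of those libraries (edgeR adjusted p = 7.54e-04). Intervals and floors here cover counting error only.

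Within fibroblasts the type I and III chains had the most UMIs. Col3a1 (ENSMUSG00000026043, mm10 chromosome 1, 45311538 to 45349706) gave 28186 and 8714 UMIs in TKO fibroblasts and 14273 and 21582 in DKO fibroblasts, or 11206 and 9882 CPM in TKO and 12334 and 12379 CPM in DKO. Col1a1 (ENSMUSG00000001506, chromosome 11, 94936224 to 94953042) gave 8080 and 8037 CPM in TKO and 10536 and 10914 CPM in DKO. Col1a2 (ENSMUSG00000029661, chromosome 6, 4504814 to 4541544) gave 6181 and 6104 CPM in TKO and 7500 and 7934 CPM in DKO. For all 3 genes both TKO libraries lay below both DKO libraries.

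Type V chains, which start fibrils and limit their width, came next. Col5a2 gave 1064 and 883 CPM in TKO and 1088 and 1136 CPM in DKO, and Col5a1 (ENSMUSG00000026837, chromosome 2, 27886425 to 28039514) gave 632 and 533 CPM in TKO and 777 and 921 CPM in DKO. Col5a3 gave 93.4 and 109 CPM in TKO and 76.0 and 95.8 CPM in DKO, so its groups overlapped. Of the rarer fibril-forming chains, Col27a1 gave 40.2 and 70.3 CPM in TKO and 51.0 and 49.9 CPM in DKO. Col24a1 gave 87 and 13 UMIs in TKO and 46 and 26 in DKO. Col11a1, best known from cartilage, gave 34 and 3 UMIs in TKO and 54 and 15 in DKO. Neither gene separated the groups.

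The fibril-associated collagens varied between libraries without separating the genotypes, apart from Col14a1 and the sparse Col20a1. Col12a1 gave 576 and 820 CPM in TKO and 900 and 658 CPM in DKO, and Col16a1 gave 140 and 138 CPM in TKO and 211 and 123 CPM in DKO. Col14a1 gave 579 and 415 CPM in TKO and 734 and 605 CPM in DKO, all TKO values below all DKO values. Col20a1 gave 32 and 7 UMIs in TKO and 7 and 7 in DKO.

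Among the microfibril chains, Col6a1 gave 395 and 504 CPM in TKO and 618 and 445 CPM in DKO. Col6a2 gave 338 and 375 CPM in TKO and 455 and 407 CPM in DKO. Col6a3 gave 219 and 243 CPM in TKO and 256 and 278 CPM in DKO. For Col6a2 and Col6a3 both TKO libraries lay below both DKO libraries. Col6a5, which can take the place of the third chain, was the most uneven of the well-covered members. It gave 262 and 301 UMIs in TKO and 42 and 192 in DKO, or 104 and 341 CPM in TKO and 36.3 and 110 CPM in DKO. Its groups overlapped. Col6a6, a relative of Col6a5, gave 30 and 5 UMIs in TKO and 6 and 7 in DKO, and Col28a1, a related collagen of nerve tissue, gave 63 and 9 in TKO and 19 and 31 in DKO.

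Of the network and basement-membrane chains, Col4a1 gave 383 and 572 CPM in TKO and 508 and 532 CPM in DKO. Col4a2 gave 238 and 293 CPM in TKO and 365 and 291 CPM in DKO. Both overlapped between genotypes. Col8a1 (ENSMUSG00000068196, chromosome 16, 57624258 to 57754737) gave 338 and 322 CPM in TKO and 196 and 229 CPM in DKO, with TKO above DKO. Its partner Col8a2 gave 63 and 20 UMIs in TKO and 21 and 46 in DKO. The multiplexin Col15a1 gave 210 and 284 CPM in TKO and 328 and 217 CPM in DKO. Col18a1 gave 27.4 and 40.8 CPM in TKO and 42.3 and 39.0 CPM in DKO. Col4a5, with 67 and 18 UMIs in TKO and 40 and 57 in DKO, Col4a6 with 30 and 4 in TKO and 6 and 3 in DKO, the transmembrane Col23a1 with 16 and 6 in TKO and 5 and 1 in DKO, and Col7a1 with 10 and 6 in TKO and 1 and 10 in DKO complete the members with at least 20 fibroblast UMIs.

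**Figure D2:**
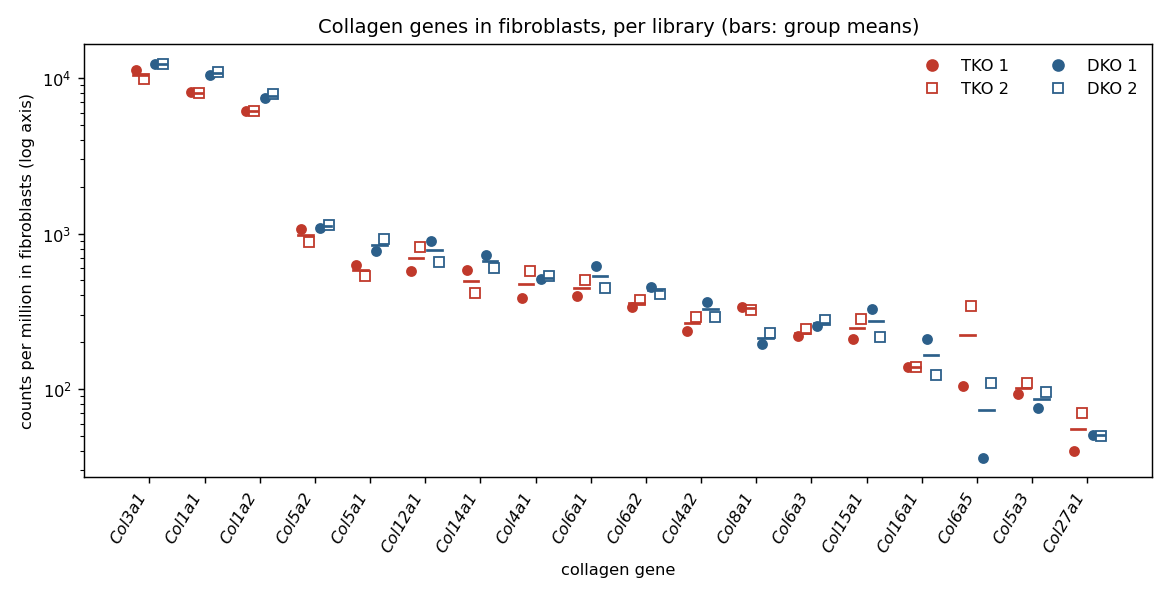
CPM of the 18 collagen genes with the most fibroblast UMIs, on a log axis, in fibroblasts of the 2 TKO libraries (red) and 2 DKO libraries (blue); points are libraries and bars are group means. TKO libraries lie below DKO libraries for Col3a1, Col1a1, Col1a2, Col5a1, Col5a2, Col14a1, Col6a2 and Col6a3. They lie above them for Col8a1, and the groups overlap for the other genes.

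The remaining 13 collagens had fewer than 20 UMIs in each of fibroblasts, basal and luminal cells. Their totals over all kept cells ranged from 1 UMI (Col22a1) to 69 (Col9a3). Col4a4 gave 67, Col11a2 66, Col4a3 22, Col13a1 21 and Col26a1 19 UMIs. Col6a4, Col19a1, Col2a1, Col9a2, Col9a1 and Col10a1 gave 7, 6, 3, 3, 2 and 2 UMIs. The cartilage collagens of types II, IX, X and XI thus gave few UMIs in the 3 classes, apart from the 106 fibroblast UMIs of Col11a1.

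The comparison of TKO with DKO asks whether collagen expression differed in the tumours that also carry the Pygo2 allele, a gene whose product acts in Wnt signalling. In fibroblasts no collagen gene passed the threshold. Collagen UMIs made up 3.05 ± 0.0670% of all UMIs in TKO and 3.73 ± 0.0199% in DKO (SD, n = 2 each), a difference of -0.680 percentage points. An exact two-sided permutation test gave p = 0.333, which is the minimum for 2 against 2 libraries. Over all genes 1 of 9772 passed (0.0102%), and 389 (3.98%) had an unadjusted p under 0.05. Of 25 collagen genes tested, 0 passed and 4 had an unadjusted p under 0.05. DESeq2 called 20 genes, none of them a collagen.

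The 4 genes were Col1a1, Col1a2, Col5a1 and Col8a1. Col1a1 differed by -0.41 ± 0.13 on the log2 scale, Col1a2 by -0.33 ± 0.14 and Col5a1 by -0.55 ± 0.20. Col8a1 differed by 0.63 ± 0.22. The edgeR adjusted p of each was 0.999. Col3a1 differed by -0.23 ± 0.13 and Col6a5 by 1.56 ± 0.92, both with an unadjusted p above 0.05. The median log2 fold change was -0.21 over the 25 genes and 0.01 over all genes, and 72.0% of the 25 were negative against 49.0% of all genes. By CPM scaled with edgeR's TMM factors, both TKO libraries lay below both DKO libraries in 8 of 25 (32.0%), against 15.3% of all genes. They were Col1a1, Col1a2, Col3a1, Col4a5, Col5a1, Col5a2, Col6a2 and Col14a1. Col8a1 and Col20a1 had both TKO libraries above, 8.0% against 15.5% of all genes. By CPM without these factors Col6a3 joined the genes that lay below, giving 9 of 25 (36.0%) against 14.6% of all genes, and the same 2 lay above, against 15.7% of all genes.

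Summed markers of other stromal types were also lower in both TKO libraries. The 6 endothelial markers summed to 115 and 154 CPM in TKO fibroblasts and 408 and 178 CPM in DKO fibroblasts. The 6 smooth muscle and pericyte markers summed to 198 and 107 CPM in TKO and 830 and 277 CPM in DKO. Of these, Acta2 gave 101 and 13.6 CPM in TKO and 534 and 220 CPM in DKO, the endothelial cadherin Cdh5 gave 0 and 1.13 CPM in TKO and 25.1 and 22.4 CPM in DKO, and the muscle myosin Myh11 gave 1.59 and 0 CPM in TKO and 61.4 and 0 CPM in DKO. Of the 12 genes, Acta2, Cdh5, Cldn5 and Egfl7 were lower in both TKO libraries, and the others overlapped between genotypes. Acta2 is also on the list of TGF-beta and fibroblast activation used below, so it does not mark muscle alone. Pecam1 gave 103 and 129 CPM in TKO and 300 and 77.4 CPM in DKO, and Des 68.0 and 68.0 CPM in TKO and 201 and 36.7 CPM in DKO. A total of 9 gated fibroblasts carried at least 20 UMIs from at least 3 genes of either list, 2 and 0 in TKO and 5 and 2 in DKO. The 9 immune markers ran the other way, at 343 and 440 CPM in TKO and 239 and 268 CPM in DKO. At least 20 UMIs from at least 3 immune markers were found in 13 of 52 and 6 of 21 fibroblasts in TKO and in 5 of 24 and 7 of 31 in DKO. The part of the immune markers in the result was not tested.

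Without the 9 cells the collagen share was 3.12% and 3.01% in TKO and 3.07% and 3.53% in DKO. The groups then overlapped, and the difference was -0.235 percentage points. Col1a1 gave 8007 and 8037 CPM in TKO and 7162 and 9710 CPM in DKO, and its log2 difference was -0.09 ± 0.18. Col1a2 gave 6104 and 6104 CPM in TKO and 5613 and 7575 CPM in DKO. Col5a1 still lay lower in both TKO libraries, at 618 and 533 CPM against 646 and 813 CPM in DKO, a log2 difference of -0.36 ± 0.20. The median over the tested collagens was -0.04. This exclusion was chosen after the data were seen. Of the 9 cells, the 2 of TKO replicate 1 gave a collagen sum of 29619 CPM. The 5 and 2 of the DKO libraries gave 53710 and 50737 CPM. All DKO fibroblasts gave 37205 and 37487 CPM. Whether the 9 cells are fibroblasts, another cell type or doublets was not tested.

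**Figure D3:**
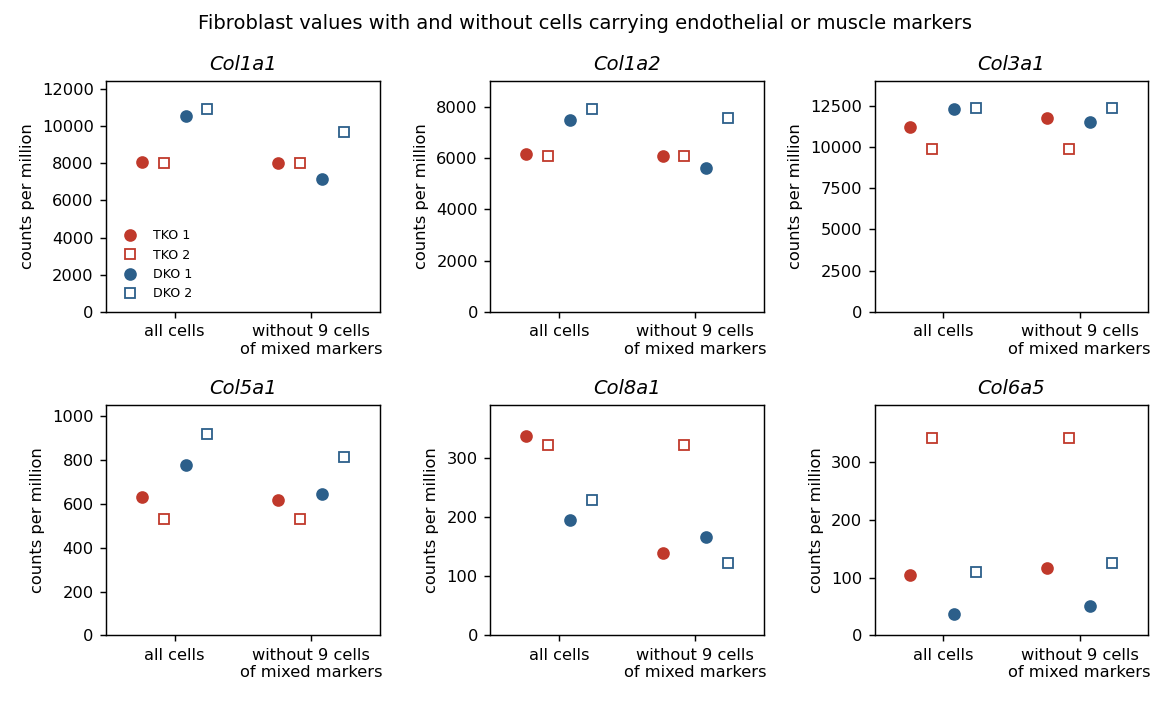
CPM of 6 collagen genes in fibroblasts of each library, TKO red and DKO blue, with all gated fibroblasts (left pair of groups in each panel) and without the 9 cells that carry endothelial or muscle markers. For Col1a1, Col1a2 and Col3a1 the genotypes separate only with all cells, and for Col8a1 TKO replicate 1 falls to 140 CPM.

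In each library 1 cell held many of the UMIs of Col8a1, and likewise of Col6a5. Col8a1 was seen in 59 of 128 fibroblasts (46.1%, exact 95% interval 37.3 to 55.1%), and 489 and 160 of its UMIs in the TKO libraries and 75 and 151 in the DKO libraries came from 1 cell of each. In TKO replicate 1 and DKO replicate 2 that cell carried muscle markers, and in DKO replicate 1 endothelial markers. Without the top cell of each library Col8a1 gave 152 and 152 CPM in TKO and 136 and 149 CPM in DKO. Without the 9 cells that carried endothelial or muscle markers it gave 140 and 322 CPM in TKO and 167 and 123 CPM in DKO. Col6a5 was seen in 49 of 128 fibroblasts (38.3%). Its top cells held 80 of 262 and 105 of 301 UMIs in TKO and 19 of 42 and 120 of 192 in DKO. Without them it gave 74.6 and 232 CPM in TKO and 20.2 and 44.4 CPM in DKO. Its groups, which overlapped with all cells, then did not.

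The ratio of the type I chains spanned a narrow range. Col1a1 gave 1.31 and 1.32 UMIs per Col1a2 UMI in TKO fibroblasts and 1.40 and 1.38 in DKO fibroblasts. Col3a1 per Col1a1 was 1.39 and 1.23 in TKO and 1.17 and 1.13 in DKO. Col5a2 per Col5a1 was 1.68 and 1.66 in TKO and 1.40 and 1.23 in DKO, and Col4a1 per Col4a2 was 1.61 and 1.95 in TKO and 1.39 and 1.83 in DKO. Col6a3 per Col6a2 was 0.648 and 0.647 in TKO and 0.562 and 0.683 in DKO.

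Across fibroblasts of a library, partner chains were also seen in the same cells. Spearman's rho of CPM between Col1a1 and Col1a2 was 0.896 to 0.960 over the 4 libraries, with a median of 0.922 (21 to 52 cells each). Col1a1 and Col5a1 gave a median of 0.790, Col6a1 and Col6a2 0.753, Col3a1 and Col1a1 0.747 and Col4a1 and Col4a2 0.546. Col6a5 went the other way from several. Its median rho was -0.438 with Col12a1 (-0.546 to -0.375) and -0.304 with Col8a1 (-0.614 to -0.181). These are descriptions: the cells of a library share its depth and its free RNA, and a cell with more of 1 collagen has less room for others in CPM.

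**Figure D4:**
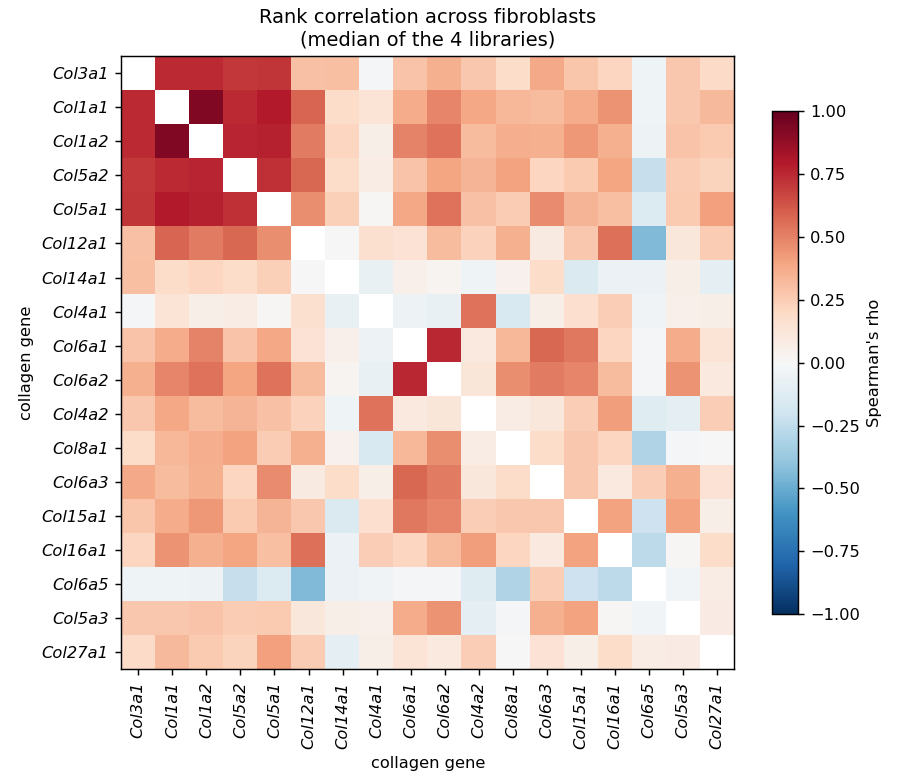
Spearman's rho between the CPM of 18 collagen genes across the fibroblasts of each library, shown as the median of the 4 libraries. Types I, III and V form a block of high values, Col6a1 to Col6a3 and the pair Col4a1 and Col4a2 form smaller ones, and the row of Col6a5 is near 0 or negative for most genes.

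The promoters of Col4a1 and Col4a2 are shown as those of a pair of partner chains, that of Col1a2 as a type I chain, and that of Col17a1 as the collagen seen mainly in basal cells. Each is the RefSeq window of GRCm38.p6 from 250 bases before to 50 after the start, read 5-prime to 3-prime on the gene's strand, with the motifs CCAAT (either strand, so also ATTGG) and TATAAA (either strand) in capitals. The windows are chr8:11312777-11313076 on the minus strand for Col4a1, chr8:11312555-11312854 on the plus strand for Col4a2, chr6:4505368-4505667 on the plus strand for Col1a2 and chr19:47691993-47692292 on the minus strand for Col17a1.
Col4a1: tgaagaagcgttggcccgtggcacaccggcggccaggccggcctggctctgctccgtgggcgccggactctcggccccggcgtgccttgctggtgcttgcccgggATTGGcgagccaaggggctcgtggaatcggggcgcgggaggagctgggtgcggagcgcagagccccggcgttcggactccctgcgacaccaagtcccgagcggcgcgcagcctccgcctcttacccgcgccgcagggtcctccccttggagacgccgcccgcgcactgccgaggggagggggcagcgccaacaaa
Col4a2: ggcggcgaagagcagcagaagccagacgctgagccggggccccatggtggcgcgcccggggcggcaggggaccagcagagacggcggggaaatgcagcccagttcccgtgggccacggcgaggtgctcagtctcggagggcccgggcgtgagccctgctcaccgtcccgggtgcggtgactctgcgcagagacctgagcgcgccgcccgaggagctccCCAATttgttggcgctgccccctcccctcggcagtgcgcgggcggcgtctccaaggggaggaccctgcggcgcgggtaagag
Col1a2: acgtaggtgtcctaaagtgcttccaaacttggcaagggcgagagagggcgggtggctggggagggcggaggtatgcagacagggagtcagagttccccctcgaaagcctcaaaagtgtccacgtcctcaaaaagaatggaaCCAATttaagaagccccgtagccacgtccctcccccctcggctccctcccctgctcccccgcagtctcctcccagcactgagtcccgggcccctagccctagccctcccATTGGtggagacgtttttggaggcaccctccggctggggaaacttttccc
Col17a1: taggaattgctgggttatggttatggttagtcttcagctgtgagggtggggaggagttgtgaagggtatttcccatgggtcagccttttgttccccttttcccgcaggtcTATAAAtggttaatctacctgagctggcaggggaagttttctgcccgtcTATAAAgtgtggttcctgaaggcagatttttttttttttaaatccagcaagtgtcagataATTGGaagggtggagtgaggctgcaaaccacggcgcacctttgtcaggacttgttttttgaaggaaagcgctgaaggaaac
Col4a1 and Col4a2 are read in opposite directions from starts 21 bases apart, so their windows share 78 bases. GC content was 74.0% and 73.7% in them, 61.0% in Col1a2 and 46.3% in Col17a1, against a median of 52.7% over all windows. A CCAAT was found in 34.2% of 38 collagen windows (35 of 44 genes matched) and in 37.4% of all 32851 windows. TATAAA was found in 13.2% of the collagen windows and 13.6% of all. A match is a run of letters, not a binding site.

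In epithelial cells Col17a1, Col7a1, Col8a1 and Col18a1 had most of their UMIs in basal-gated cells. These cells also carried luminal markers. The 8 luminal markers summed to 9030 and 6269 CPM in TKO basal cells and 10795 and 9929 CPM in DKO basal cells. In luminal cells they summed to 11955 and 14553 CPM in TKO and 13885 and 12035 CPM in DKO. Col17a1 (ENSMUSG00000025064, chromosome 19, 47646344 to 47692094) gave 52 and 0 UMIs in TKO basal cells and 6 and 390 in DKO basal cells. It was seen in 20 of 37 basal cells (54.1%, exact 95% interval 36.9 to 70.5%) and in 8 of 117 luminal cells (6.84%). Immune cells, which should lack it, had it in 33 of 2848 (1.16%). Median depth was 53292 UMIs in basal, 15323 in luminal and 8957.5 in immune cells. With each cell thinned to 2000 UMIs, which left out 2 luminal and 13 immune cells, the shares were 24.3% in basal cells, 0% in luminal cells and 0.247% in immune cells. In TKO replicate 1, 49 of the 52 UMIs came from 1 cell.

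Col7a1 (ENSMUSG00000025650, chromosome 9, 108953586 to 108984875) gave 16 and 0 UMIs in TKO basal cells and 2 and 50 in DKO basal cells, and was seen in 19 of 37 basal and 5 of 117 luminal cells. Col8a1 gave 12 and 0 UMIs in TKO basal cells and 0 and 65 in DKO basal cells, from 12 of 37 cells, against 2 UMIs in all luminal cells. Col18a1 gave 19 and 0 UMIs in TKO basal cells and 5 and 154 in DKO basal cells. Of the 154, 81 came from 1 cell with muscle markers. Most basal counts of these genes therefore came from DKO replicate 2, which also had the most basal cells. Basal Col17a1 was highest there in CPM too, at 307, against 28.3 in DKO replicate 1 and 97.2 and 0 in TKO. Without the top cell it gave 272 CPM in DKO replicate 2 and 6.17 CPM in TKO replicate 1.

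Basal and luminal cells were compared within the 2 libraries with at least 10 cells of each, TKO replicate 1 and DKO replicate 2. Of 8895 genes 0 passed in edgeR (0.0%), 1127 (12.7%) had an unadjusted p under 0.05, and DESeq2 called 102. Of 11 collagen genes 0 passed in edgeR, 3 had an unadjusted p under 0.05, and DESeq2 called 2. Col17a1 was 6.50 ± 0.55 on the log2 scale in basal over luminal cells (edgeR adjusted p = 0.137) and Col7a1 5.31 ± 0.66 (edgeR adjusted p = 0.175). Col8a1 had 0 luminal UMIs in these libraries, so its 42.7 CPM in basal cells was at least 37.8-fold higher than the floor of 3 counts over all those luminal cells (edgeR adjusted p = 0.213). Without cells carrying endothelial, muscle or Schwann markers 39 of 8473 genes and 2 of 9 collagens passed. The 2 collagens were Col17a1 (edgeR adjusted p = 0.0247) and Col18a1 (4.06 ± 0.50, edgeR adjusted p = 0.0456).

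Col25a1 (ENSMUSG00000058897, chromosome 3, 130131501 to 130599877) had UMIs in both epithelial classes. It gave 5 and 20 UMIs in TKO luminal cells and 18 and 103 in DKO luminal cells, 48 of the 103 from 1 cell. It was seen in 28 of 117 luminal cells (23.9%, exact 95% interval 16.5 to 32.7%), in 7 of 37 basal cells (18.9%) and in 6 of 2848 immune cells (0.211%). Thinned to 2000 UMIs, the shares were 8.70% in luminal, 2.70% in basal and 0.0706% in immune cells. Basal over luminal cells differed by -1.57 ± 0.66 on the log2 scale (edgeR adjusted p = 0.434). Col4a5 had UMIs in both, with 22 and 1 in TKO basal cells, 5 and 29 in DKO basal cells, 13 and 3 in TKO luminal cells and 16 and 26 in DKO luminal cells. Col4a6 gave 21 and 0 UMIs in TKO basal and 4 and 10 in DKO basal cells. Of all UMIs in kept cells, epithelial cells held 82.6% for Col17a1, 74.0% for Col25a1, 51.1% for Col7a1, 33.6% for Col4a6, 29.0% for Col18a1 and 26.9% for Col4a5.

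**Figure D5:**
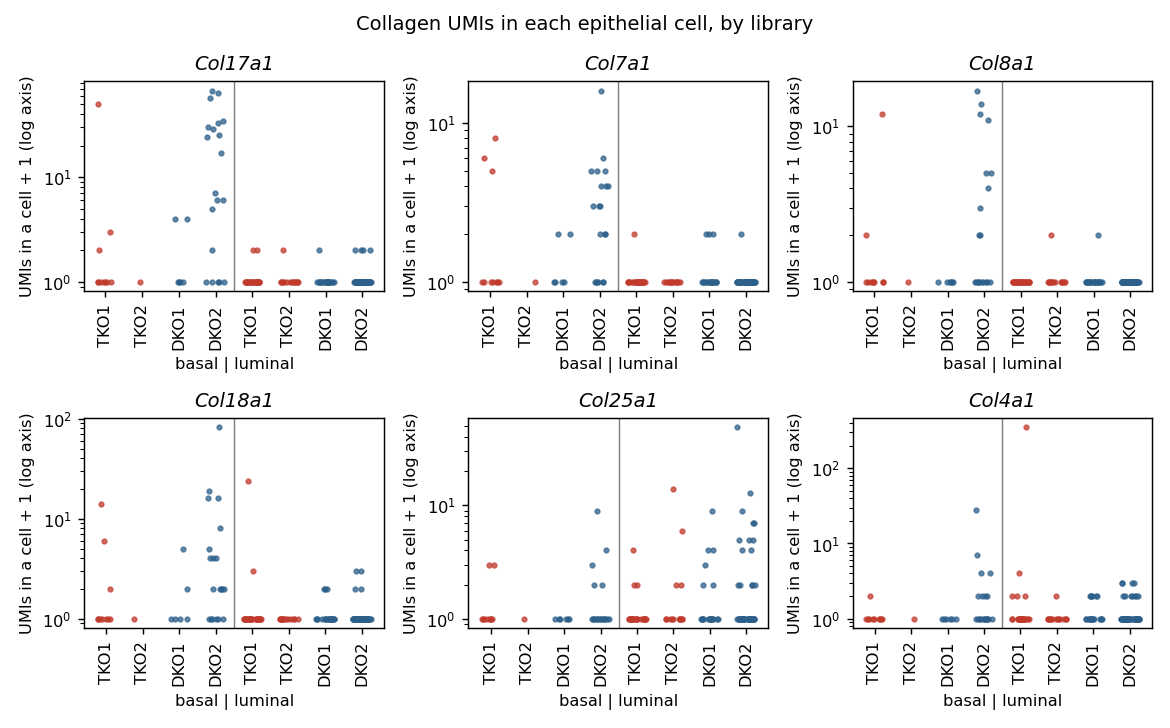
UMIs + 1 (log axis) of 6 collagen genes in each basal cell (left of the line) and luminal cell (right of it), by library, TKO red and DKO blue. Col17a1 and Col7a1 exceed 1 UMI mainly in basal cells of DKO replicate 2, Col25a1 is spread over luminal cells of all libraries, and luminal Col4a1 of TKO replicate 1 rests on 1 cell.

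Col3a1 gave 91.8 and 135.7 CPM in TKO luminal cells and 82.9 and 84.6 CPM in DKO luminal cells. Each value was below that of immune cells of its library, except in TKO replicate 2, where immune cells gave 135.1 CPM. Col1a1 and Col1a2 were lower in luminal than in immune cells of all 4 libraries. A Col3a1 UMI was found in 85.5% of luminal cells and 79.5% of immune cells, and at 2000 UMIs per cell in 25.2% and 30.0%.

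TKO and DKO epithelial cells were compared although libraries had as few as 15 cells, a choice made after the data were seen. By edgeR 0 of 9230 genes (0.0%) and 0 of 12 collagens passed. At an unadjusted p under 0.05 there were 474 genes (5.14%) and 0 collagens, and DESeq2 called 34 genes, none a collagen. Col17a1 differed by -1.31 ± 1.41 and Col25a1 by -0.24 ± 0.92 on the log2 scale. In luminal cells alone 4 of 8019 genes passed (0.0499%) and 0 of 5 collagen genes (unadjusted p under 0.05 in 7.87% of genes and 0 collagens), with Col25a1 at -0.60 ± 0.89 and Col3a1 at 0.34 ± 0.32. In TKO replicate 1 the cell with endothelial markers held 350 of 356 Col4a1, 179 of 182 Col4a2 and 23 of 25 Col18a1 luminal UMIs. A luminal fit without TKO replicate 2 therefore rests on that cell for these genes. Basal cells, with 1 cell in TKO replicate 2, had no test of genotype. The difference of the genotype effect between fibroblasts and epithelial cells passed for 6 of 10939 genes (0.0548%) and for 0 of 28 collagens by edgeR, with 1 collagen, Col14a1, at an unadjusted p under 0.05, against 4.74% of genes.

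Immune cells held collagen UMIs at low, even levels. Col3a1 gave 143 and 135 CPM in TKO immune cells and 142 and 143 CPM in DKO immune cells, and Col1a1 83.3 and 81.7 CPM in TKO and 88.3 and 83.0 CPM in DKO. The mean number of collagen UMIs per cell varied less between classes than depth did. Neutrophils had 4.73 and 4.12 per cell in TKO and 4.53 and 4.70 in DKO, and dendritic cells 5.82 and 6.83 in TKO and 6.32 and 6.65 in DKO, although median depth was 7079 and 6293 UMIs in TKO neutrophils and 7238 and 6742 in DKO neutrophils, and 25814 and 27888 in TKO dendritic cells and 26382 and 26704 in DKO dendritic cells. Each of 4 immune classes was set against the other 3, which was chosen with the data in view. Of 11 tested collagens, 9 were higher in neutrophils as a share of UMIs (31.2% of all genes were higher there) and 0 lower, against 32.5%. In T and NK cells 0 were higher, against 34.6% of all genes, and 3 lower, against 28.1%.

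Of the 11 tested collagens, only Col27a1 and Col14a1 were called higher in a class other than neutrophils. Others varied between classes too. Per 100 Col3a1 UMIs, Col15a1 had 9.76 in neutrophils, 3.42 in T and NK cells and 2.11 in fibroblasts. Of 34 immune Col8a2 UMIs, 28 were in T and NK cells. In dendritic cells Col27a1 (ENSMUSG00000045672, chromosome 4, 63214004 to 63334991) was the only one of 11 collagens higher than in other immune classes (2.79 ± 0.46 on the log2 scale, edgeR adjusted p = 1.09e-04, against 22.8% of all genes higher) while 7 were lower, against 20.3% of all genes. It had 20 and 8 UMIs in TKO dendritic cells and 4 and 25 in DKO dendritic cells, from 15 of 126 cells (11.9%), against 14 of 1284 neutrophils (1.09%). Monocytes and macrophages had 6 and 3 Col27a1 UMIs in TKO and 25 and 4 in DKO. Per 100 Col3a1 UMIs, dendritic cells had 22.5 and 9.09 in TKO and 9.30 and 46.3 in DKO. Monocytes and macrophages had 3.19 and 4.17 in TKO and 22.7 and 5.06 in DKO. In DKO replicate 1 they thus lay above dendritic cells. In monocytes and macrophages Col14a1 (ENSMUSG00000022371, chromosome 15, 55307750 to 55520803) was the only one higher (2.37 ± 0.29, edgeR adjusted p = 6.65e-06, against 21.7% of all genes) and 3 were lower, against 16.7%. It had 68 and 6 UMIs in TKO and 27 and 32 in DKO, from 40 of 180 cells (22.2%), against 77 of 1284 neutrophils. Median depth was 26926.5 UMIs in dendritic cells, 22170 in monocytes and macrophages and 6937.5 in neutrophils. At 2000 UMIs per cell the shares were 3.17% in dendritic cells and 0.157% in neutrophils for Col27a1, and 6.67% in monocytes and macrophages and 1.49% in neutrophils for Col14a1.

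Between genotypes 4 of 13272 genes passed in immune cells (0.0301%) and 0 of 22 collagens by edgeR. Col27a1 was the 1 collagen with an unadjusted p under 0.05, against 5.36% of all genes, at -1.01 ± 0.35 on the log2 scale (edgeR adjusted p = 0.898). It gave 52 and 19 UMIs in TKO immune cells and 40 and 45 in DKO immune cells, or 3.79 and 2.28 CPM in TKO and 6.34 and 5.56 CPM in DKO. Without the top cell of each library it gave 2.84 and 1.56 CPM in TKO and 3.54 and 4.09 CPM in DKO. DESeq2 called 52 genes and 0 collagens. Neutrophils were 467 of 1048 and 247 of 691 immune cells in TKO and 307 of 520 and 263 of 589 in DKO. Collagen UMIs were 0.0639% and 0.0632% of UMIs in TKO neutrophils and 0.0587% and 0.0661% in DKO neutrophils. T and NK cells gave 0.0391% and 0.0380% in TKO and 0.0404% and 0.0353% in DKO. The part of this make-up in the genotype values of immune cells was not tested. By TMM-scaled CPM both TKO libraries lay below both DKO libraries in 8 of 22 collagens (36.4%), against 17.7% of all genes, and above them in 1 (4.55%, Col18a1), against 17.3% of all genes. By CPM without these factors 3 (13.6%) lay below, against 12.1% of all genes, namely Col1a2, Col5a3 and Col27a1. Then 3 lay above, against 25.2% of all genes, namely Col18a1, Col4a1 and Col4a2, the last of which lay below by TMM-scaled CPM. For Col18a1 and Col4a1 the top cell of both TKO libraries and of DKO replicate 2 carried endothelial markers. Without the top cell of each library Col18a1 gave 2.27 and 1.80 CPM in TKO and 1.75 and 1.99 CPM in DKO. Col4a1 gave 7.75 and 6.01 CPM in TKO and 8.57 and 7.20 CPM in DKO. The groups then overlapped for both genes.

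Genes that act on collagen were described from 6 lists. In fibroblasts 0 genes of any list passed between TKO and DKO. The levels of these genes are TMM-scaled CPM. Of 17 tested genes that modify and fold the chains, 4 had a positive log2 fold change, and the median was -0.13. P4ha3, a prolyl hydroxylase subunit, gave 84.6 and 90.3 CPM in TKO and 52.2 and 51.4 CPM in DKO (0.75 ± 0.22, edgeR adjusted p = 0.870). Fkbp10, a collagen chaperone, gave 118 and 83.2 CPM in TKO and 132 and 178 CPM in DKO. P4ha2 differed by -0.46 ± 0.26. Of 11 genes of propeptide cleavage and crosslinking, 7 were positive, with a median of 0.08. Adamts3, which trims procollagen, gave 16.1 and 19.01 CPM in TKO and 42.8 and 35.3 CPM in DKO (-1.17 ± 0.30, edgeR adjusted p = 0.716). The cleavage enhancer Pcolce2 differed by 0.71 ± 0.26 and the crosslinking enzyme Loxl4 by 0.78 ± 0.50.

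Of 9 fibril-bound partners 2 were positive, with a median of -0.68. Fibronectin (Fn1) gave 1394 and 841 CPM in TKO and 1658 and 1934 CPM in DKO (-0.68 ± 0.25), Thbs2 differed by -0.71 ± 0.29 and Sparc, a collagen-binding protein, by -0.31 ± 0.14 (edgeR adjusted p = 0.999 each). Of 5 receptors 4 were positive, with a median of 0.15. Ddr2, a receptor kinase for fibrillar collagen, differed by 0.33 ± 0.44, Itga1 by -0.49 ± 0.37 and Ddr1 by 0.31 ± 0.31. Of 7 breakdown genes 3 were positive, with a median of -0.07, and Mmp2 differed by -0.35 ± 0.20, Mmp3 by -0.56 ± 0.30 and the inhibitor Timp2 by 0.36 ± 0.18. Of 10 genes of TGF-beta and fibroblast activation 5 were positive, with a median of 0.10. Tgfb1 differed by -0.69 ± 0.27, Tgfb2 by -0.97 ± 0.42 and the surface protein Thy1 by 1.06 ± 0.42. The median of all genes was 0.01.

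The same lists separated fibroblasts from epithelial cells. By edgeR 16 of 17 modification genes, 10 of 10 cleavage and crosslinking genes, 7 of 9 fibril-bound partners, 7 of 7 breakdown genes and 9 of 10 activation genes were higher in fibroblasts and 0 lower, against 22.1% of all genes higher. The receptors were split, with 3 of 6 higher and 3 lower. Those lower were Ddr1 (-1.18 ± 0.24), Itga2 (-4.32 ± 0.38), both collagen receptors of epithelia, and Mrc1 (-3.25 ± 1.00), a lectin of macrophages.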

How the data were processed

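Tumour cells of 2 TKO and 2 DKO libraries were profiled with a 3-prime, UMI-based droplet kit, per the labels' protocols. The submitters' processing notes name Cell Ranger 7.0.0, STAR and the build mm10. The authors deposited unnormalised UMI counts per gene and cell, per the file headers. Gene positions come from a GENCODE annotation of mm10, promoter windows from RefSeq.

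Cells were kept from 200 detected genes upward and up to 20% mitochondrial UMIs (3381 of 3508). A cell joined the class of its leading marker list if it had at least 20 UMIs (10 for immune cells) from at least 3 genes, and at least 5 times those of the next class. Epithelial cells were basal if at least 5% of their epithelial marker UMIs came from at least 2 basal genes. These thresholds were set from the marker counts after the data were seen, and lie on a range: 4 basal and 17 luminal cells had a basal share between 2.5 and 10%. Cells in which no class led by that factor got no class, so classed cells can still hold markers of another class. No doublet caller was run. The members and gene lists were chosen with earlier results of these data known.

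UMI counts were summed per library and class and tested with edgeR 4.0.16 in R 4.3.3 (TMM, filterByExpr, robust quasi-likelihood, Benjamini-Hochberg over all genes at 0.05). SEs are the absolute log2 fold change over the square root of its quasi-likelihood F statistic. Comparisons between classes had the library as block. Alternatives were DESeq2 1.42.0, other scaling, filters and gates, and leaving out each library. The tests were also tried on simulated data. Named were all members with at least 20 UMIs in fibroblasts, basal or luminal cells, those with an unadjusted p under 0.05 between genotypes, those with the largest share of UMIs outside fibroblasts, and in each list genes past the threshold, or else the 3 with the smallest p. Thinning to 2000 UMIs used a fixed seed.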

Additional observations from a re-analysis of the deposited data

Results flagged for a closer look

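By library values Col3a1 differed between TKO and DKO in opposite directions in fibroblasts and luminal cells, but it passed the threshold in neither class. It gave 11206 and 9882 CPM in TKO fibroblasts and 12334 and 12379 CPM in DKO fibroblasts, but 91.8 and 135.7 CPM in TKO luminal cells and 82.9 and 84.6 CPM in DKO luminal cells. Without fibroblasts that carried endothelial or muscle markers, Col3a1 overlapped between genotypes in fibroblasts. It then gave 11739 and 9882 CPM in TKO and 11540 and 12384 CPM in DKO. Median depth of luminal cells was 12868 and 8202 UMIs in TKO and 23307.5 and 15829 in DKO. The part of depth in the luminal values was not tested. The difference between fibroblasts and luminal cells was not tested. Between fibroblasts and all epithelial cells the log2 genotype effect differed by -0.62 ± 0.39, which was not called (edgeR adjusted p = 1). Immune cells gave 143 and 135.1 CPM in TKO and 142 and 143 CPM in DKO.

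Cells that were given to no class, and so entered no comparison, held collagen at 0.414% and 1.31% of their UMIs in TKO and 1.27% and 1.01% in DKO, above the immune and epithelial classes of every library. They numbered 251. Of their 39985 collagen UMIs, 31160 came from 27 cells with both fibroblast and immune markers. Whether these are doublets was not tested.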

How the results depend on the processing

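In fibroblasts 0 collagens passed between genotypes under every alternative except the replicate block, which called 1 (Col6a5, 1.58 ± 0.31). Same-numbered libraries deviated together by a correlation of 0.0192 in fibroblasts, 0.0250 in epithelial and 0.253 in immune cells, so with 2 pairs the numbers are not shown to pair libraries. The block called 74 genes in fibroblasts, 61 in immune and 82 in luminal cells. All-gene counts moved widely. DESeq2 called 20 in fibroblasts, 52 in immune, 34 in epithelial and 42 in luminal cells, 102 for basal over luminal and 15 for the difference of effects. Without a filter they were 161, 515, 251, 351, 543 and 176. Leaving out a library gave 7 to 59, 0 to 180, 5 to 476, 15 to 310 and, for the difference of effects, 21 to 154, and 0 to 2, 0 to 3 and 0 to 2 collagens in epithelial cells, luminal cells and the difference. Fibroblasts gave 0 genes with mixed-class cells put in their leading class and 0 without cells of endothelial, muscle or Schwann markers. Without such cells there were 2 genes in luminal cells, as did a basal share of 20%, and 39 genes and 2 collagens for basal over luminal. That comparison gave 4 genes without the library block, 1 with stricter cell filters, 2 collagens by DESeq2 and 4 without a filter; a stricter gate or left-out library could not be fitted there. The difference of effects gave 10 genes under a stricter gate, 16 with stricter cell filters and 0 with mixed-class cells.

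In fibroblasts collagen as a percent of UMIs, TKO minus DKO, was -0.734 with stricter cell filters and -0.374 with mixed-class cells. It was -0.235 without cells of endothelial, muscle or Schwann markers. With mixed-class cells it was -0.0474 in luminal (0.0461 otherwise), -0.0262 in epithelial (0.0222 otherwise) and 0.00183 in immune cells (-0.000640 otherwise). Without a filter, 18 of 42 collagens passed in neutrophils, against 7752 of 22341 genes. In T and NK cells 5 of 42 passed, against 7553 of 22341 genes. Leaving out a library gave 1 to 3 collagens of 11 to 14 in T and NK cells, against 5618 to 6426 genes of 10389 to 11170. Fibroblasts over epithelial cells reversed for Col18a1 (-0.0796 to 0.983 without a library) and Col4a6 (0.14 with mixed-class cells). The cause was not tested. Libraries held as few as 1 basal cell.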
